A study of Homo sapiens with 16 samples.

Results

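In KG-1 cells, an established human acute myeloid leukemia line of myeloblast-like suspension cells, 79 protein-coding genes were well expressed in control cells and had at most 3 counts in every FOXM1 knockdown library. They were chosen from RNA-seq counts of 43836 genes. Of the 19635 protein-coding genes outside chromosome Y, 8408 had 10 or more CPM in all 8 control libraries without MK-2206, and 129 of these (1.53%) had 3 or fewer counts in all 6 knockdown libraries. Here CPM express the count of each gene as a proportion of the library total, after that total was scaled by the TMM method. Another 50 of the 129 genes were set aside by symbol: 45 zinc finger genes named ZNF, 3 histone genes, 1 HOX gene and CD96. The control and knockdown values therefore chose the genes and are given as a description, with no test. MK-2206 libraries played no part in the choice.

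The experiment compared KG-1 cells carrying a non-target shRNA (Control) with KG-1 cells carrying shRNA against FOXM1 (shFOXM1), 2 libraries for each of 8 groups. Both cell populations were transduced with lentiviral particles and selected with 4 ug/mL puromycin. Control cells received 0.3% DMSO, 0.75 uM AraC, 100 nM venetoclax (Venet) or 50 uM STL427944 (STL) for 48 h, or 30 uM MK-2206 for 24 h, and shFOXM1 cells received DMSO, AraC or venetoclax at the same doses for 48 h. Because each genotype is 1 transduced and selected population, FOXM1 depletion and any other difference between the populations cannot be told apart. MK-2206 differed from DMSO in treatment time as well as in drug, and these cannot be told apart either.

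FOXM1 is a forkhead transcription factor that drives genes of late cell cycle phases in dividing cells. AKT is a kinase of growth factor signaling, and MK-2206 is an allosteric inhibitor of AKT. AraC (cytarabine) blocks DNA synthesis, venetoclax inhibits the survival protein BCL2, and STL427944 is a FOXM1 inhibitor. The 79 genes belong to no single pathway. By known function they comprised 7 secreted ligands and matrix proteins, 9 receptors and adhesion proteins, 9 channels and transporters, 14 transcription factors and nuclear proteins, 17 vesicle, cytoskeleton and signal adaptor proteins, 17 enzymes, and 6 others.

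The libraries held 7351755 to 21362546 counts, with the lowest totals, 7351755 and 10330720, after MK-2206. FOXM1 itself was at 112, 138 and 181 CPM (lowest, median and highest of the 8 control libraries). In the 6 shFOXM1 libraries it was at 48.8, 69.4 and 121 CPM in the same order. Over all treatments the highest shFOXM1 library lay above the lowest control library. With DMSO alone FOXM1 was at 140 and 138 CPM in control cells and at 48.8 and 81.8 CPM in shFOXM1 cells. After MK-2206 FOXM1 was at 21.7 and 19.8 CPM. Of 8 markers of the labelled cell type, 7 were at 10 or more CPM in all 8 control libraries, and 4 of these also in all 6 shFOXM1 libraries. CD34 was at 715 to 1470 CPM in control cells, had at most 4 counts in each shFOXM1 library, and had 7 and 18 counts after MK-2206. MPO, the granule enzyme myeloperoxidase, was at 0.322 to 12.5 CPM in control cells, 1520 to 10600 CPM in shFOXM1 cells, and 555 and 396 CPM after MK-2206. In the test of MK-2206 against DMSO given below, MPO was the only 1 of the 8 markers called higher. Another 6 were called lower, and the median log2 fold change of the 8 was -3.54. Of the 8408 expressed genes 41% were called lower and 12.1% higher. On chromosome Y, 7 of 7 protein-coding genes at 10 or more CPM in the 8 control libraries had at most 3 counts in all 6 shFOXM1 libraries, and 1 of the 7 also after MK-2206. The part of these differences in the results on the 79 genes was not tested.

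Among the control libraries, Control-Venet replicate 1 and Control-STL replicate 2 stood apart from their partners and close to each other. Across the 8408 expressed genes, the root mean square log2 difference was 0.62 between the Control-Venet libraries, 0.59 between the Control-STL libraries, 0.29 between Control-Venet replicate 1 and Control-STL replicate 2, and 0.23 between Control-Venet replicate 2 and Control-STL replicate 1. It was 0.16 between the Control-DMSO libraries and 0.26 between the Control-AraC libraries. Without these 2 libraries the rule gave 93 genes, 79 of them the genes described here. The comparison of MK-2206 with DMSO does not use them. Whether exchanged labels or a shared batch has a part in this was not tested, so the values under the labels venetoclax and STL427944 are subject to it.

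Promoters of 60 of the 79 genes were matched by symbol in the RefSeq table for GRCh38.p14, which runs from 250 bases before to 50 bases after each annotated start. The annotated start may not be the one used in KG-1 cells. The 4 promoters below are shown as examples of CG-rich and CG-poor promoters among the 60 matched: STON2, which had the most CPM in control cells, the homeobox gene MEIS1, MMRN1 and CPA3. CG dinucleotides are in capitals.
The STON2 promoter lies at chr14:81436416-81436715 on the minus strand and holds 43 CG dinucleotides.
STON2: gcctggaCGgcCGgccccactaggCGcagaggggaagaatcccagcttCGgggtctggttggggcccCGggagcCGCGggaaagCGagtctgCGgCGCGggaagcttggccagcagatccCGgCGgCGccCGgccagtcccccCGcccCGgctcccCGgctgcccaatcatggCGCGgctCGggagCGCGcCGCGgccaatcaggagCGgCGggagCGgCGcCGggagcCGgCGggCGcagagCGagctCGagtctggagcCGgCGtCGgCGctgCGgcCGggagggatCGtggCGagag
The MEIS1 promoter lies at chr2:66434875-66435174 on the plus strand and holds 18.
MEIS1: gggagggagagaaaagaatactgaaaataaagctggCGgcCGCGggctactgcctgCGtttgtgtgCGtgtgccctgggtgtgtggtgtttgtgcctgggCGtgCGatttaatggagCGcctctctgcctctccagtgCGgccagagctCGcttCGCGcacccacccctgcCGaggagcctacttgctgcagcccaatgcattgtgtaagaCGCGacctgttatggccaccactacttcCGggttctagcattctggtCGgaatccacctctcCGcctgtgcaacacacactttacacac
The MMRN1 promoter lies at chr4:89879261-89879560 on the plus strand and holds 2.
MMRN1: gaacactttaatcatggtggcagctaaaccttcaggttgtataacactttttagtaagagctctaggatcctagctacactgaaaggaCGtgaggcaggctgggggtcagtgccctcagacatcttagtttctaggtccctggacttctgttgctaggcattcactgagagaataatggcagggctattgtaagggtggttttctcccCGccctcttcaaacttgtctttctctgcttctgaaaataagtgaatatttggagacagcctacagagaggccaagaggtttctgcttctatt
The CPA3 promoter lies at chr3:148865046-148865345 on the plus strand and holds 0.
CPA3: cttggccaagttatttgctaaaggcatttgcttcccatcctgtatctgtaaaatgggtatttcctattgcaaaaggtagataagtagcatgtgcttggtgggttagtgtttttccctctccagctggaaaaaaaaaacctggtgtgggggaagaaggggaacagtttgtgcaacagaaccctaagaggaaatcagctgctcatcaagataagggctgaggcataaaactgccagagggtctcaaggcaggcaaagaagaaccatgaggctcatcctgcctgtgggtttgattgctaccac
Not in the table were ANGPT1, ANGPT2, APOBEC3F, BACE2, C8orf82, CERS4, CLEC9A, CYP7B1, DLC1, ENSG00000269825, GBP5, JAM3, PNMT, SCN3A, SHANK2, SLC47A1, SPINT2, TMIGD2 and VSTM1.

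In control cells the mean of the 79 genes over the 8 control libraries ran from 12.7 to 512 CPM with a median of 46.4 CPM, and together they summed to 5370 to 5940 CPM per control library. In the shFOXM1 libraries the same sum was 0.740 and 0.633 CPM with DMSO (14 and 12 counts over all 79 genes), 3.19 and 2.26 CPM with AraC (54 and 43 counts), and 2.12 and 1.25 CPM with venetoclax (31 and 21 counts). No count was found in any of the 6 shFOXM1 libraries for 19 genes, 47 had a highest count of 1 or 2, and 13 reached 3. In bulk RNA, fewer cells of a type and less RNA per cell cannot be told apart.

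STON2, an endocytic adaptor (ENSG00000140022.9, chromosome 14 of GRCh38, 81260652 to 81436465, minus strand), had the most CPM in control cells, before any correction for length. It was at 367, 529 and 648 CPM (lowest, median and highest of 8) in control cells and had 0 to 2 counts per shFOXM1 library, 3 counts in all. The ratio of pooled levels was 17700 (95% counting interval 6050 to 85700), the largest of the 60 genes with a shFOXM1 count. Intervals of this kind cover counting error only. For shFOXM1 cells they also make no allowance for the rule, which chose the genes on these same counts. Among the 19 genes at 0 in shFOXM1 cells, set against a floor of 3 counts over the 6 libraries, the sodium channel gene SCN2A was at least 2620-fold lower and the adaptor gene CLNK at least 565-fold lower. The smallest ratio among the 79 genes, 156 (81.9 to 341), was that of GOLGA8O, which had 9 counts in all and belongs to a family of near-identical copies, so its count is uncertain.

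**Figure D1:**
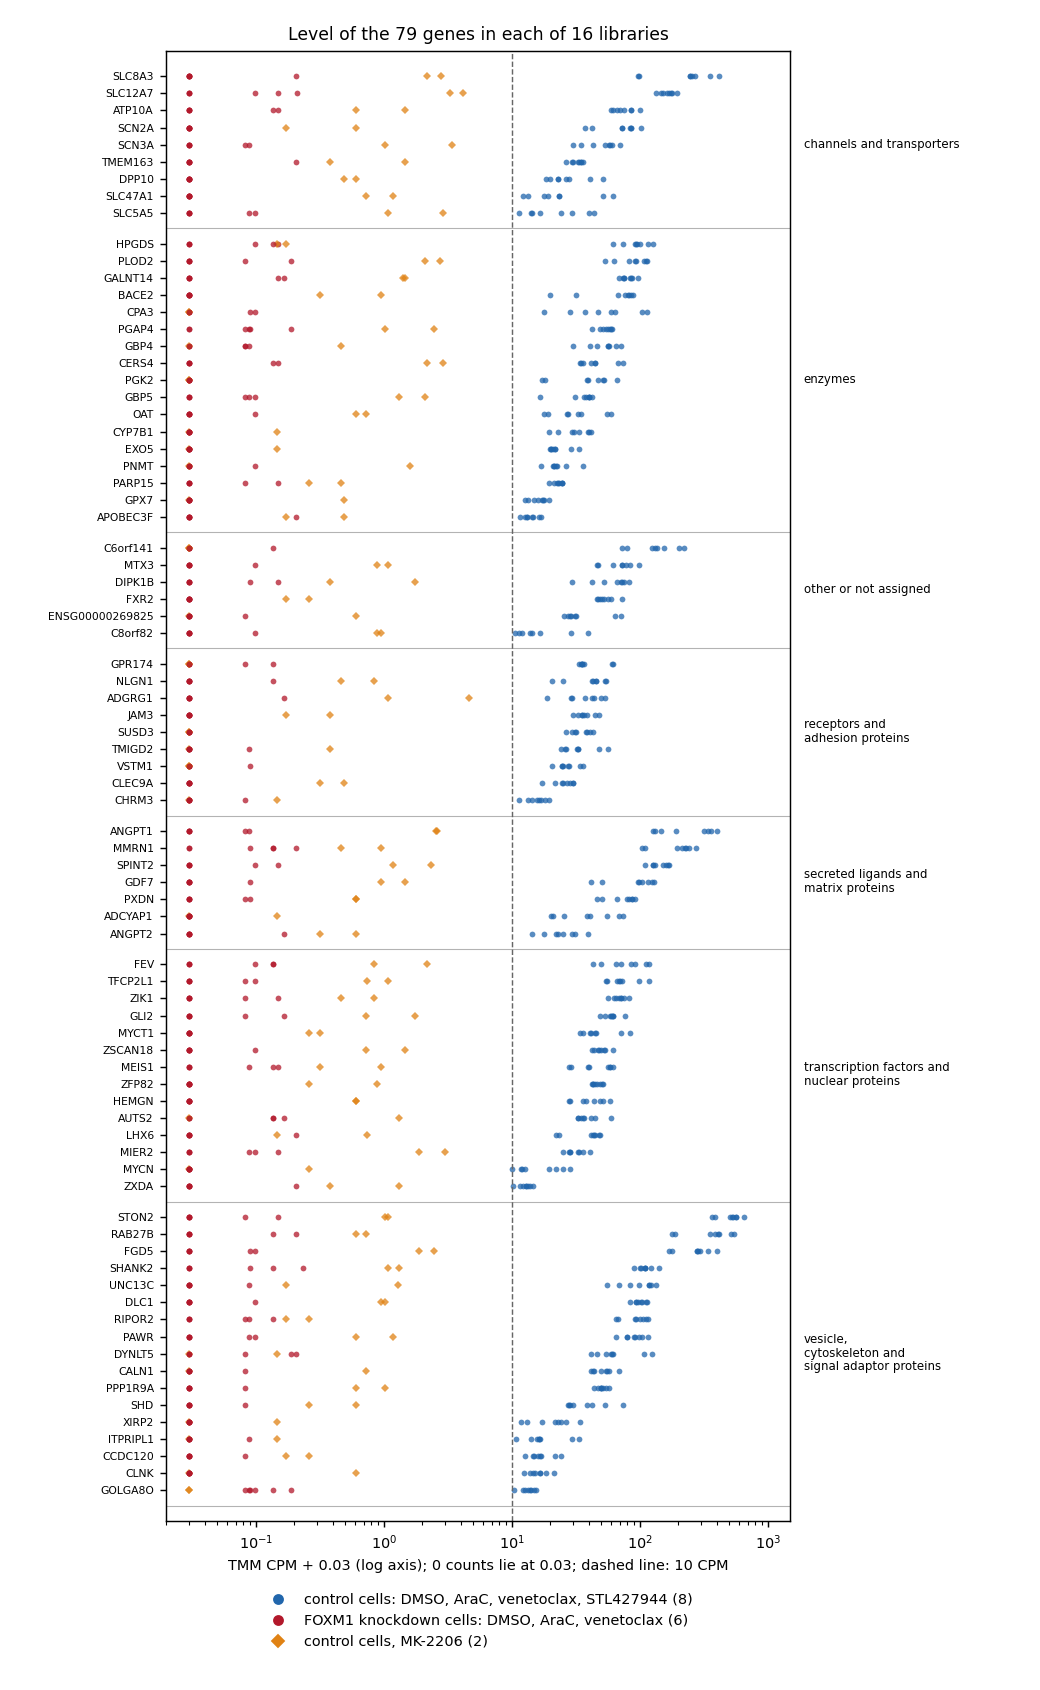
TMM CPM of each of the 79 genes in each of the 16 libraries (log axis, 0.03 added so that 0 counts can be drawn), grouped by role. Control points lie at or right of the dashed line at 10 CPM and shFOXM1 points at 3 or fewer counts because the rule placed them there. The MK-2206 diamonds, which the rule did not use, reach at most 4.57 CPM.

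After MK-2206 all 79 genes were far below their level in DMSO. The summed level was 67.1 and 59.5 CPM in the MK-2206 libraries, 1.15% and 1.02% of the mean of the DMSO libraries (5850 and 5810 CPM). The highest value of any of the 79 genes in either MK-2206 library was 4.57 CPM, and 48 genes stayed under 1 CPM in both. The test was edgeR's quasi-likelihood test on the 2 MK-2206 and 2 DMSO libraries, fitted to all 28905 genes with a count, and a gene was called at a change of 2-fold or more with a Benjamini-Hochberg adjusted p below 0.1. All 79 genes were called lower, against 41% of the 8408 genes that met the same control threshold and 17.9% of all genes tested. Their median log2 fold change was -6.41, with a range from -14.06 to -2.96, and the highest adjusted p in this edgeR test was 2.13e-12. The size of these p-values depends strongly on the processing: that of STON2, the lowest of the 79, was 2.14e-112 here and rose as far as 0.00942 (edgeR) over the alternatives tried. The median was -0.67 over the 8408 expressed genes and 1.03 over all genes tested. Because the DMSO libraries were held at 10 or more CPM by the rule, the expressed genes are the closer background. The submitters call the 2 libraries of a group biological replicates. The p-values rest on a spread between replicates that the test estimates in part from other genes, not on each gene's own spread alone.

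Of the 79 genes, 24 had 3 or fewer counts in both MK-2206 libraries, against 0.666% of the 8408 expressed genes. The rule set the same limit in counts for shFOXM1 cells, but not the same level. There 3 counts correspond to 0.158 to 0.205 CPM, against 0.428 and 0.347 CPM in the MK-2206 libraries. The 7 genes with 0 counts in both MK-2206 libraries were C6orf141, CPA3, GPR174, PGK2, SUSD3, VSTM1 and GOLGA8O. At the other end 9 genes kept 10 or more counts in both libraries. The fitted fold changes of genes at 0 depend on the prior count, and with these genes set at a floor of 3 counts over the group the median log2 ratio was -6.48.

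Genes without a level elsewhere also had counts in the MK-2206 libraries. There were 4886 genes with at most 3 counts in each of the 14 other libraries, and they averaged 0.584 and 0.542 CPM after MK-2206. The 79 genes averaged 0.850 and 0.753 CPM. The medians lay further apart, at 0 and 0.116 CPM for the 4886 genes and at 0.571 and 0.578 CPM for the 79. Of the 4886 genes 62.3% and 50% were at 0 counts, against 20 and 10 of the 79 genes. The 95th percentile of the 4886 genes was 1.29 and 1.04 CPM, and 19 and 14 of the 79 genes exceeded it. More genes had a count after MK-2206 (21430 and 24957) than with DMSO (19266 and 19353), although the libraries were smaller.

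Not all of the genes at low level after MK-2206 were off in shFOXM1 cells. Of the 8408 expressed genes, 512 (6.09%) were below 5 CPM in both MK-2206 libraries. The 79 genes made up 15.4% of these, and 87 of the 512 had 10 or more CPM in all 6 shFOXM1 libraries.

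**Figure D2:**
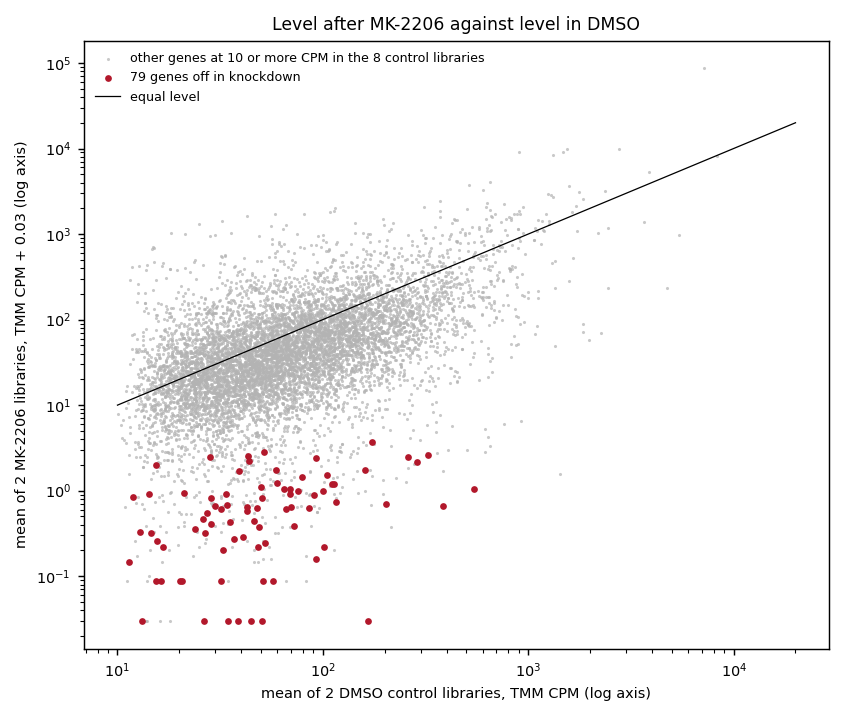
Mean TMM CPM of the 2 MK-2206 libraries against the mean of the 2 DMSO control libraries for the 8408 expressed genes, both axes on a log scale. The 79 genes (red) lie far below the line of equal level, 7 of them at 0 counts, among grey genes that also reach low levels.

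Secreted ligands and matrix proteins numbered 7, all called lower after MK-2206, with a median log2 fold change of -6.76 (-9.54 to -5.78). ANGPT1, a ligand of the receptor tyrosine kinase TEK (ENSG00000154188.9, chromosome 8, 107249482 to 107498055, minus strand), was at 338 and 315 CPM with DMSO and at 2.57 and 2.54 CPM with MK-2206. The MK-2206 libraries lay close together and far below every control library, the lowest of which was 127 CPM. The log2 fold change (MK-2206 against DMSO, with its standard error, SE) of ANGPT1 was -6.92 with an SE of 0.33 (edgeR, adjusted p = 2.56e-79), a ratio of 128 (93.9 to 179). ANGPT2, the other angiopoietin on the list, was at 22.8 and 29.6 CPM with DMSO and at 0.286 and 0.578 CPM with MK-2206. TEK itself was at 1.87 to 6.04 CPM in control cells, below the threshold of the rule.

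MMRN1 encodes multimerin 1, a factor V binding protein of platelets and endothelium (ENSG00000138722.9, chromosome 4, 89879532 to 89954629, plus strand). It was at 213 and 194 CPM with DMSO and had 3 and 8 counts (0.428 and 0.925 CPM) after MK-2206, at a log2 fold change of -8.10 with an SE of 0.48 (edgeR, adjusted p = 1.90e-80). Without Control-MK2206 replicate 2 the log2 fold change was -8.83. In shFOXM1 cells MMRN1 had 8 counts over 6 libraries. SPINT2, an inhibitor of serine proteases, was at 168 and 151 CPM with DMSO and at 2.29 and 1.16 CPM after MK-2206. It overlaps annotated protein-coding genes on both strands, so its count is uncertain. GDF7, a ligand of the bone morphogenetic protein family, was at 96.8 and 130 CPM with DMSO and at 1.43 and 0.925 CPM after MK-2206. ADCYAP1, which encodes the neuropeptide PACAP, had 0 counts in all shFOXM1 libraries and 0 and 1 counts after MK-2206, against 73.3 and 41.1 CPM with DMSO.

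The 9 receptors and adhesion proteins had a median log2 fold change of -7.28 (-11.95 to -4.18) and all were called lower, with 6 of them at 3 or fewer counts in both MK-2206 libraries. GPR174, a receptor for lysophosphatidylserine, was at 33.7 and 35.2 CPM with DMSO and at 0 counts in both MK-2206 libraries, at least 180-fold lower. SUSD3 and VSTM1, the second an inhibitory receptor of myeloid cells, were likewise at 0, at least 201-fold and at least 138-fold lower. ADGRG1 (GPR56), an adhesion receptor of stem and progenitor cells, kept the most CPM of the group (ENSG00000205336.11, chromosome 16, 57610652 to 57665580, plus strand). It was at 49.7 and 53.4 CPM with DMSO and at 4.57 and 1.04 CPM after MK-2206 (32 and 9 counts), at a log2 fold change of -4.18 with an SE of 0.36 (edgeR, adjusted p = 2.00e-29). The MK-2206 libraries differed from each other more for ADGRG1 than for ANGPT1, and both lay below the lowest control library at 18.7 CPM. Without Control-MK2206 replicate 1 the log2 fold change was -5.57, and without replicate 2 it was -3.46. NLGN1, a synaptic adhesion protein, was at 42.3 and 43.1 CPM with DMSO and at 0.428 and 0.809 CPM after MK-2206.

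Channels and transporters numbered 9, with a median log2 fold change of -5.50 (-7.47 to -2.96), and none was at 3 or fewer counts in both MK-2206 libraries. SLC8A3, a sodium and calcium exchanger, was at 248 and 271 CPM with DMSO and at 2.14 and 2.77 CPM after MK-2206, at a log2 fold change of -6.64 with an SE of 0.34 (edgeR, adjusted p = 2.66e-72). SLC12A7, a potassium and chloride cotransporter, was at 170 and 178 CPM with DMSO and at 4.14 and 3.24 CPM after MK-2206, a ratio of 47.8 (36.8 to 63.2). SLC5A5, the sodium and iodide symporter, had the smallest change of the 79 genes against DMSO in this fit. It was at 16.7 and 14.2 CPM with DMSO and at 2.86 and 1.04 CPM after MK-2206, at a log2 fold change of -2.96 and a ratio of 8.34 (5.74 to 12.6). Its log2 fold change was -3.84 without Control-MK2206 replicate 1 and -2.40 without replicate 2. MIER2 had the smallest change with Control-Venet as the reference (-3.66), and SCN3A when Control-MK2206 replicate 1 was left out (-3.65). The sodium channel genes SCN2A and SCN3A lie next to each other and overlap on opposite strands, so reads of one can count for the other if strand was not used in counting.

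The 14 transcription factors and nuclear proteins had a median log2 fold change of -6.14 (-7.20 to -3.49). MEIS1, a homeobox protein that binds DNA with HOX proteins in stem cells and in leukemia (ENSG00000143995.19, chromosome 2, 66433452 to 66573869, plus strand), was at 56.3 and 39.4 CPM with DMSO and had 2 and 8 counts (0.286 and 0.925 CPM) after MK-2206. Its log2 fold change was -6.15 with an SE of 0.53 (edgeR, adjusted p = 7.86e-43), and it had at most 2 counts in any shFOXM1 library. The log2 fold change was -5.64 without Control-MK2206 replicate 1 and -7.31 without replicate 2. MYCN, a MYC family transcription factor (ENSG00000134323.11, chromosome 2, 15940550 to 15947007, plus strand), was the gene nearest to the control threshold, at 10.1 and 12.7 CPM with DMSO. It had 0 counts in all 6 shFOXM1 libraries and 0 and 2 counts after MK-2206, a ratio to DMSO of 89.3 (24.6 to 740), and its log2 fold change of -6.32 became -5.53 without Control-MK2206 replicate 1 and -10.36 without replicate 2. FEV, an ETS family factor, was at 91.7 and 119 CPM with DMSO and at 2.14 and 0.809 CPM after MK-2206, and TFCP2L1, of the grainyhead-like family, at 65.9 and 71.9 CPM and at 0.714 and 1.04 CPM. MIER2, a partner of histone deacetylases, changed least in this group, from 28.1 and 28.5 CPM to 3.00 and 1.85 CPM (log2 fold change -3.49, standard error 0.38, adjusted p = 2.05e-19, edgeR). Also in this group were GLI2 of the hedgehog pathway, LHX6, HEMGN, MYCT1, AUTS2 and the zinc finger proteins ZIK1, ZSCAN18, ZFP82 and ZXDA.

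Vesicle, cytoskeleton and signal adaptor proteins formed a group of 17 genes with a median log2 fold change of -7.01 (-10.41 to -5.41). It held the 3 genes with the most CPM in control cells. STON2 was at 523 and 562 CPM with DMSO and had 7 and 9 counts (1.00 and 1.04 CPM) after MK-2206, at a log2 fold change of -8.97 with an SE of 0.40 (edgeR, adjusted p = 2.14e-112) and a ratio of 531 (327 to 929). RAB27B, a small GTPase of granule secretion (ENSG00000041353.9, chromosome 18, 54717860 to 54895516, plus strand), was at 355 and 417 CPM with DMSO and at 0.571 and 0.693 CPM after MK-2206, a ratio of 604 (328 to 1260). For both genes, as for all 79, the MK-2206 libraries lay below every control library. FGD5, an exchange factor for CDC42, was at 294 and 283 CPM with DMSO and at 2.43 and 1.85 CPM after MK-2206. SHANK2, a synaptic scaffold protein, UNC13C, which primes vesicles, DLC1 and RIPOR2 had log2 fold changes of -6.50, -7.17, -6.62 and -8.91. UNC13C had 1 and 11 counts after MK-2206, so its level there is known only roughly, and its log2 fold change was -6.46 without Control-MK2206 replicate 1 and -9.55 without replicate 2.

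The 17 enzymes had a median log2 fold change of -5.81 (-12.35 to -4.01). HPGDS, which makes prostaglandin D2 in hematopoietic cells (ENSG00000163106.10, chromosome 4, 94298535 to 94342876, minus strand), was at 91.7 and 92.5 CPM with DMSO and had 1 count in each MK-2206 library, at a log2 fold change of -9.32 with an SE of 1.00 (edgeR, adjusted p = 3.08e-66) and a ratio of 721 (199 to 5960). CPA3, a carboxypeptidase of mast cell granules (ENSG00000163751.3, chromosome 3, 148865296 to 148897203, plus strand), had 683 and 1164 counts with DMSO and 0 in both MK-2206 libraries, at least 264-fold lower. PLOD2, a collagen lysyl hydroxylase, kept 19 and 18 counts, 2.71 and 2.08 CPM against 94.0 and 91.9 CPM with DMSO. GALNT14, which starts O-linked glycans, was at 83.6 and 75 CPM with DMSO and at 1.43 and 1.39 CPM after MK-2206. CERS4, a ceramide synthase, had the smallest change among the enzymes, at 41.4 and 44.8 CPM with DMSO and 2.14 and 2.89 CPM after MK-2206 (log2 fold change -4.01, standard error 0.36, adjusted p = 7.47e-27, edgeR). Reads of PGK2 and APOBEC3F may be shared with close relatives of these genes. The other enzymes, with log2 fold changes within the range above, included the oxysterol hydroxylase CYP7B1, the adrenaline-forming enzyme PNMT, the protease BACE2 and the interferon-inducible GTPases GBP4 and GBP5.

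Of the 6 remaining genes, C6orf141 (ENSG00000197261.11, chromosome 6, 49550666 to 49561907, plus strand) had the largest fitted change of all 79, a log2 fold change of -14.06. It had 3684 and 2398 counts with DMSO and 0 in both MK-2206 libraries, at least 871-fold lower. MTX3, a mitochondrial outer membrane protein, was at 78.2 and 72.4 CPM with DMSO and at 0.857 and 1.04 CPM after MK-2206. FXR2, DIPK1B, C8orf82 and ENSG00000269825 completed the group, and the last 2 overlap other protein-coding genes on the same strand.

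Per kilobase of annotated exon, the levels in control cells ran from 1.03 CPM per kb for CHRM3, a muscarinic receptor, to 52.2 for RAB27B. FEV at 50.5, C6orf141 at 48.0 and HPGDS at 44.9 came next, above STON2 at 39.3. On this scale MEIS1 was at 4.24, ADGRG1 at 4.21 and MYCN at 6.41. The SD over the 8 libraries was 134 CPM for RAB27B, 27.6 CPM for FEV, 52.6 CPM for C6orf141 and 20.9 CPM for HPGDS. It lay around means of 374, 79.6, 140 and 94.7 CPM, so the order of these 4 genes is not resolved beyond this spread. This SD includes differences between treatments. Over the DMSO libraries alone the SD was 44.4, 19.2, 49.6 and 0.506 CPM around means of 386, 105, 167 and 92.1 CPM, in the same order.

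Control cells given AraC, venetoclax or STL427944 kept all 79 genes at 10 or more CPM by the rule, so their values are described without a test. The median log2 ratio to DMSO was 0.03 for AraC, -0.06 for venetoclax and -0.02 for STL427944. The range was widest with AraC, from -1.48 (ADCYAP1) to 1.42 (SLC47A1). With AraC 5 genes were 2-fold or more below DMSO and 6 were 2-fold or more above, against 1.12% and 1.17% of the 8408 expressed genes. With venetoclax and with STL427944 the mean of the 2 libraries was 2-fold from DMSO for 0 of the 79 genes. Over the 8408 expressed genes, 0.0833% were 2-fold or more below DMSO with venetoclax and 0.0595% above. With STL427944 these shares were 0.167% and 0.0833%. For these drugs the mean joins libraries that stood apart: the single libraries ranged from -2.12 to 1.5 (Control-Venet replicate 1), -1.16 to 0.60 (Control-Venet replicate 2), -0.82 to 0.43 (Control-STL replicate 1) and -1.46 to 1.02 (Control-STL replicate 2).

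The genes that AraC libraries placed lower were ADCYAP1, SLC8A3, PGK2, FEV and C6orf141. SLC8A3 was at 98.5 and 96.1 CPM with AraC, below both DMSO libraries at 248 and 271 CPM, and FEV was at 49.5 and 42.7 CPM against 91.7 and 119 CPM. Higher with AraC were SLC47A1, ENSG00000269825, MYCN, DYNLT5, SLC5A5 and CPA3. MYCN was at 28.3 and 25 CPM with AraC against 10.1 and 12.7 CPM with DMSO. CPA3 was at 103 and 115 CPM with AraC against 37.4 and 64.0 CPM with DMSO. The AraC and DMSO libraries did not overlap in these 4 genes, nor in most others: in 28 of the 79 genes both AraC libraries lay below both DMSO libraries and in 34 both lay above, 62 in all. Over the 8408 expressed genes these shares were 33.7% and 30.6%.

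**Figure D3:**
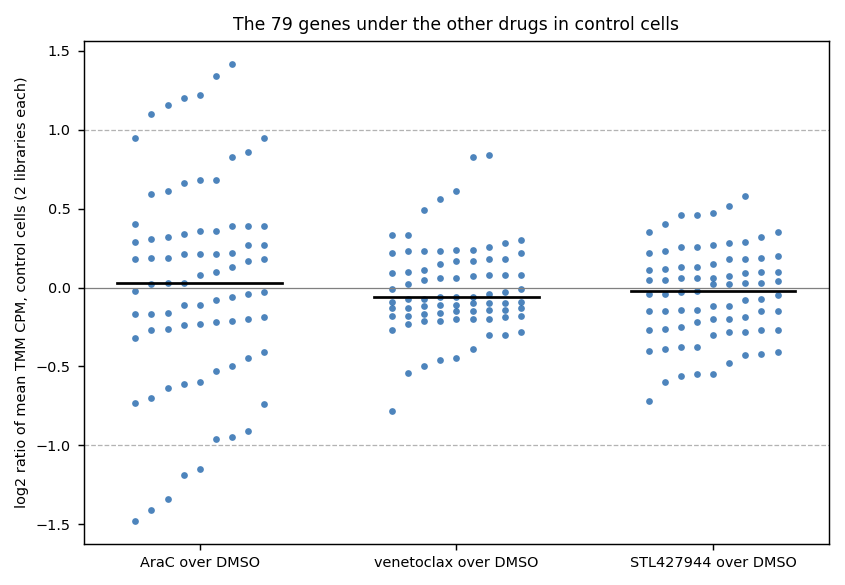
Log2 ratio of mean TMM CPM to the DMSO mean in control cells for each of the 79 genes under AraC, venetoclax and STL427944, with 2 libraries per group. Black bars mark the medians at 0.03, -0.06 and -0.02 and dashed lines mark a 2-fold difference, passed with AraC by 5 genes downward and 6 upward.

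Within control cells the highest library exceeded the lowest by 1.21 times for ZFP82 to 6.43 times for CPA3, with a median of 2.13. Part of this spread followed the libraries that stood apart. In 25 of the 79 genes (31.6%) both Control-Venet replicate 1 and Control-STL replicate 2 lay below the DMSO libraries and their own partners, and in 20 (25.3%) both lay above. Over the 8408 expressed genes these shares were 44.4% and 19%. ANGPT1 was at 132 and 127 CPM in these libraries and at 315 to 397 CPM in the DMSO libraries, Control-Venet replicate 2 and Control-STL replicate 1. MMRN1 was at 109 and 103 CPM against 194 to 242 CPM in the same comparison.

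The 79 genes were compared with gene lists chosen with earlier results of these data known. Of a 17-gene leukemic stem cell score, 11 genes were at 10 or more CPM in the 8 control libraries, 2 of these were among the 79 (MMRN1 and ADGRG1), and 2 were at 10 or more CPM in all shFOXM1 libraries. After MK-2206, 13 of the 17 were called lower and 4 higher, with a median log2 fold change of -4.18. Of 33 stem and progenitor genes 17 were expressed, 3 were among the 79 (MYCN, MEIS1 and ANGPT1), and of 31 tested after MK-2206 20 were called lower and 6 higher (median -2.72). For comparison, 17.9% of all genes tested were called lower and 26% higher, with a median of 1.03. Among expressed genes, 11 of 11 in the score and 15 of 17 in the stem and progenitor list were called lower. Of the 8408 expressed genes 41% were called lower and 12.1% higher, with a median of -0.67. Both lists overlap, since CD34 is on each.

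Of 26 FOXM1 target and G2/M genes 25 were expressed in all 8 control libraries, and the same 25 were at 10 or more CPM in all 6 shFOXM1 libraries, so none was among the 79. After MK-2206 22 of the 26 were called lower and 1 higher (median -1.87). Of 27 erythroid, megakaryocyte and mast cell genes 2 were expressed, 1 of them CPA3, and 9 of 22 tested were called lower after MK-2206 and 6 higher (median 1.36). Of 38 lymphoid genes 9 were expressed and none was among the 79, since CD96 was set aside by name, and 20 of 35 tested were called lower and 9 higher (median -2.79). Of 33 interferon-stimulated genes 14 were expressed and none was among the 79, with 16 called lower and 7 higher (median -0.98). This list did not include GBP4 and GBP5, which are among the 79. Of the expressed genes, 22 of 25 FOXM1 target and G2/M genes and 2 of 2 erythroid, megakaryocyte and mast cell genes were called lower. So were 9 of 9 lymphoid and 11 of 14 interferon-stimulated genes, against 41% of the 8408 expressed genes. Over all genes tested, 17.9% were called lower and 26% higher.

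Granule, monocyte and dendritic cell genes were higher in sum in shFOXM1 cells. Of 27 such genes 5 were expressed in all 8 control libraries and 14 in all 6 shFOXM1 libraries. Their summed level was 449 to 932 CPM in control cells, 4830 to 19100 CPM in shFOXM1 cells, and 1140 to 1850 CPM after MK-2206. MPO, at 1520 to 10600 CPM in shFOXM1 cells and 555 and 396 CPM after MK-2206, is in this sum. None of the 27 genes was among the 79, and after MK-2206 5 of 24 tested were called lower and 10 higher (median 0.81). Over all genes tested, 17.9% were called lower and 26% higher. Of the 5 granule, monocyte and dendritic cell genes expressed in control cells 3 were called lower, against 41% of the 8408 expressed genes. Of 25 cancer-testis genes 0 were expressed in all 8 control libraries and 2 in all 6 shFOXM1 libraries, and 4 of 8 tested were called higher after MK-2206 (median 4.15). The summed level of these genes was 0.329 to 1.45 CPM in control cells, 157 to 192 CPM in shFOXM1 cells and 64.1 to 71.3 CPM after MK-2206.

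The 79 genes lay on 21 chromosomes. Chromosome 2 carried 14 of them (17.7%, against 6.99% of the 8408 expressed genes) and chromosome 19 carried 11 (13.9% against 8.08%). The symbols that the rule set aside are still counted among the 8408. Without them 8004 expressed genes remained, 7.27% on chromosome 2 and 6.08% on chromosome 19. Chromosomes 13 and 20 carried 0 of the 79 genes. On chromosome 2 they included GDF7, GALNT14, MEIS1, MYCN, FEV, PXDN, TMEM163 and the neighbours GLI2 with TFCP2L1 and SCN2A with SCN3A. GBP4 with GBP5 on chromosome 1 and SHD with TMIGD2 on chromosome 19 were also adjacent, so 8 of the 79 genes lay next to another of the 79. Genes that the rule set aside by symbol, such as ZNF135 beside ZSCAN18, are not in this count.

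The 79 genes had 157 different neighbouring protein-coding genes, 60 of which were at 10 or more CPM in all 8 control libraries and not among the 79. Of these 60, 51 had a mean of 10 or more CPM in shFOXM1 cells, 3 had a mean under 1 CPM, and 17 were more than 2-fold below control, with a median ratio of shFOXM1 to control of 0.743. Of the 8408 expressed genes, which include the 79, 93.3% had a mean of 10 or more CPM, 2.63% a mean under 1 CPM and 16.6% were more than 2-fold below control, with a median ratio of 0.978. At least 1 expressed neighbour with a mean of 10 or more CPM in shFOXM1 cells flanked 38 of the 79 genes. Such neighbours can still be lower than in control, as SYNE1 beside MYCT1 was (234 and 14.1 CPM). Of the 79 genes 14 had both neighbours under 1 CPM in control cells. The same counts over all expressed genes were not made. STON2 lay between GTF2A1 (85.3 CPM in control and 67.5 CPM in shFOXM1 cells) and SEL1L (169 and 192 CPM). HPGDS lay next to SMARCAD1 (99.8 and 115 CPM), and MYCN lay between DDX1 (164 and 161 CPM) and CYRIA (45.7 and 8.09 CPM). Other neighbours were far lower in shFOXM1 cells: ITM2A beside GPR174 (608 and 3.41 CPM) and ADGRG5 beside ADGRG1 (97.1 and 1.90 CPM). So were ZNF135 (29.6 and 0 CPM) and ZNF329 (36.6 and 0.296 CPM) on either side of ZSCAN18. ZNF135 met both limits of the rule and was set aside by its symbol.

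**Figure D4:**
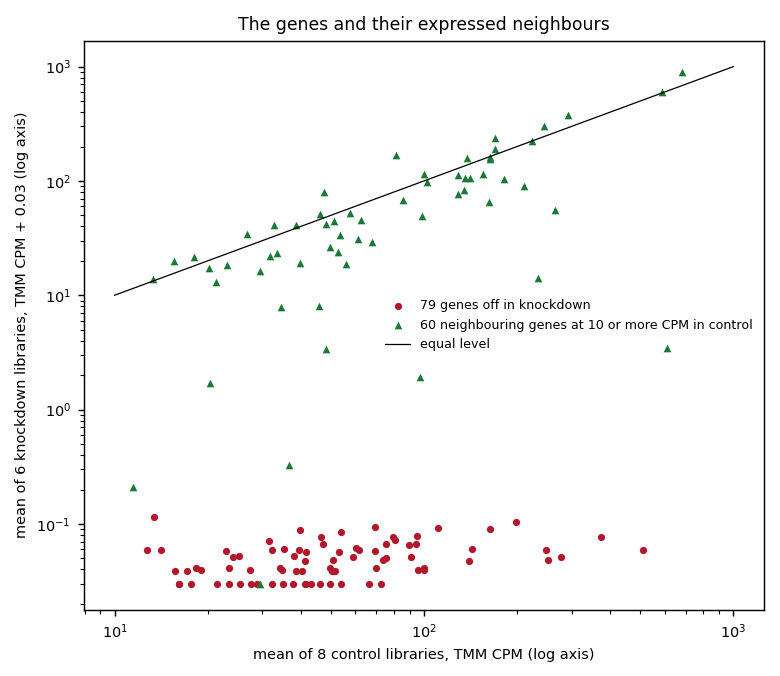
Mean TMM CPM of the 6 shFOXM1 libraries against the mean of the 8 control libraries (log axes) for the 79 genes (red) and for the 60 expressed genes next to them (green triangles). Of the 60 triangles 51 lie at 10 or more CPM in shFOXM1 cells and 17 lie more than 2-fold below the line of equal level, while the red points lie at the bottom because the rule placed them there.

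By median, the promoters of the 79 genes held fewer CG dinucleotides than those of all expressed genes. The 60 matched promoters had a median of 19.5 CG dinucleotides (0 to 55), and the 7020 promoters of expressed genes had a median of 27. The ratio of observed to expected CG, which corrects for base composition, had medians of 0.676 and 0.866. It was under 0.4 in 19 of the 60 promoters (31.7%), such as those of MMRN1 and CPA3 printed above, against 6.42% of the expressed genes and 25.2% of all 15812 promoters in the table. It was 0.6 or more in 58.3%, such as those of STON2 and MEIS1, against 87.7% and 65.8%. These shares are descriptions without a test.

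**Figure D5:**
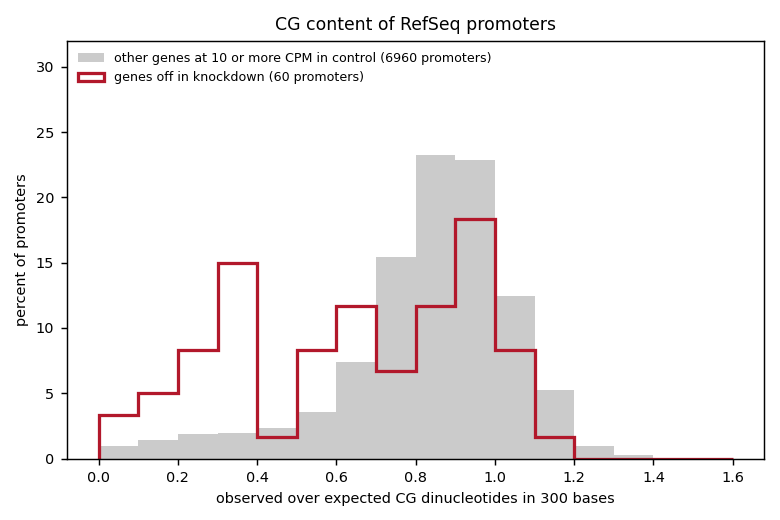
Percent of promoters by the ratio of observed to expected CG dinucleotides in 300 bases, for 60 of the 79 genes (red line) and for the other expressed genes (grey). The red line has more promoters under 0.4 (31.7% against 6.42% of all expressed genes).

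Short motifs were searched on both strands and counted separately. The forkhead core GTAAACA was found in 1 of the 60 promoters (1.67%), that of FGD5, against 2.32% of the promoters of expressed genes and 2.62% of all promoters. TTTGAA, the core of the cell cycle homology region, was found in 8 (13.3% against 9.8% and 12.1%), those of MMRN1, GDF7, RIPOR2, SCN2A, MTX3, CALN1, DPP10 and MYCN. CCAAT was found in 19 (31.7% against 38% and 36.3%) and TATAAA in 3 (5.0% against 5.0% and 9.64%), those of HPGDS, MYCT1 and HEMGN. A match is a description of the letters and not of binding.

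Genes at the limits of the rule had values close to each other on both sides. The genes with the lowest control library just inside were MYCN (10.1 CPM), ZXDA (10.2 CPM), GOLGA8O (10.4 CPM), C8orf82 (10.5 CPM) and ITPRIPL1 (10.7 CPM). Just outside were RHAG (9.98 CPM), KLHL33 (9.71 CPM), SIGLEC12 (9.63 CPM), ARPP21 (9.15 CPM) and GUCY1B1 (9.00 CPM), all of them under 1 CPM in both MK-2206 libraries. Another 7 genes missed the limit by a highest shFOXM1 count of 4. Among them PTPRD was at 0.428 and 0.578 CPM after MK-2206, and GUCY1A1, a subunit of soluble guanylate cyclase, was at 20.1 and 22.8 CPM there.

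Gene overlaps limit some of these values. In the annotation 23 of the 79 genes overlap another gene on the same strand and 47 overlap one on the other strand, mostly non-coding genes. Protein-coding genes overlap 4 of them on the same strand (SPINT2, RIPOR2, C8orf82 and ENSG00000269825) and 9 on the other.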

How the data were processed

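Total RNA of 16 KG-1 libraries was depleted of ribosomal RNA and sequenced. The submitters' processing notes name STAR, featureCounts and hg38, and the authors deposited whole-number counts per Ensembl gene without normalization. The sample labels and the study name different library kits, and whether strand or molecular identifiers were used in counting is not given in the sources used here. Gene types, coordinates and overlaps were taken from GENCODE 44, in which 43177 of the 43836 genes were found and 659 were not. All deposited sample columns were used.

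CPM were computed with the TMM factors of all 16 libraries in edgeR 4.0.16 (R 4.3.3). MK-2206 was compared with DMSO by edgeR's quasi-likelihood test (glmQLFit and glmQLFTest) on 4 libraries and on all 28905 genes with a count, with a prior count of 0.125. A gene was called at a 2-fold change and a Benjamini-Hochberg adjusted p below 0.1, the thresholds of the study. Standard errors came from the fitted weights and are left out where a group was at 0. Ratios of pooled counts carry exact binomial 95% intervals, and genes at 0 were set at a floor of 3 counts over the group. Plots were drawn with matplotlib 3.10.9 in Python 3.11.15.

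The members, the gene lists and the roles were chosen with earlier results of these data known. Named with values were FOXM1, the 15 genes with the highest control CPM, the 5 with the largest and smallest change after MK-2206 among those with 10 or more counts in both libraries, the 2 with the highest control CPM in each role group, genes on the lists, and genes at the limits of the rule. Others were named after their values were seen. Labels number the replicates of the MK-2206, AraC and venetoclax groups but not those of DMSO and STL427944. Libraries with the same number deviated together (correlations of 0.296 to 0.480 in 10 pairs of groups over 14888 genes). The replicate block took these numbers as pairs, and whether they mark paired samples was not tested. As alternatives, the comparison was repeated with a single fit of all libraries, with filterByExpr, with other scalings, with the exact test of edgeR, with DESeq2 1.42.0, a prior count of 2, an adjusted p below 0.05, Control-Venet as the reference with and without the replicate block, other limits of the rule, and leaving out libraries.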

Additional observations from a re-analysis of the deposited data

How the results depend on the processing

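All 79 genes were called lower after MK-2206 under each alternative tried: a single fit of all 16 libraries, scaling by total counts only, filterByExpr, the size factors of DESeq2, DESeq2 itself, the exact test of edgeR, an adjusted p below 0.05, and leaving out each of the 4 libraries (79 to 79). No paired analysis was run against DMSO, because the labels give the DMSO libraries no replicate numbers. The numbers used for them here follow accession order. With Control-Venet as the reference, 79 were called with the replicate block and 79 without it. The highest adjusted p among the 79 genes was 0.0898 (edgeR), without Control-MK2206 replicate 1, and 0.0484 with DESeq2. The adjusted p of STON2 was 2.14e-112 in the reported edgeR fit, 2.34e-09 with DESeq2's size factors, 4.87e-05 with filterByExpr, and 0.00942 and 0.00799 without Control-MK2206 replicate 1 or replicate 2. The median log2 fold change of all genes tested was 1.03 with TMM factors, 0.82 when libraries were scaled by their totals and 1.11 when DESeq2's factors replaced TMM, and that of the 79 genes was -6.41, -6.63 and -6.31. filterByExpr tested fewer genes, over which the median was 0.08, while that of the 8408 expressed genes went from -0.67 to -0.51 and that of the 79 to -6.25. All 1027 refitted log2 fold changes of the 79 genes kept their direction and their call, but 42 of the 79 moved by over 1.5 times when a library was left out, 41 of them with an MK-2206 library and CPA3 with Control-DMSO replicate 2 (-11.69 against -12.35). Without Control-MK2206 replicate 1 and without replicate 2 the values were -8.81 and -12.69 for ADCYAP1, -5.44 and -6.44 for ANGPT2, -6.96 and -5.58 for FEV, and -5.66 and -6.58 for NLGN1. The number of genes off after MK-2206 depends on the limit: 24 had 3 or fewer counts in both libraries, 27 were below 0.5 CPM in both, and 7 had 0 counts in both. With 1 of the MK-2206 libraries left out it was 32 (without replicate 1) and 38 (without replicate 2). The number of genes that meet the rule was 19 when 0 counts were required in all 6 shFOXM1 libraries, and 53 to 115 under the other limits and scalings. Leaving out replicate 1 or replicate 2 of every group gave 99 and 95, and leaving out Control-Venet replicate 1 and Control-STL replicate 2, an alternative chosen after seeing the data, gave 93. After MK-2206, 3 counts correspond to 0.428 and 0.347 CPM, against 0.143 to 0.208 CPM in the other libraries, so levels below these are not resolved there. With 2 libraries per group no library could be tested as an outlier.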
